A study of Chlorocebus aethiops with 24 samples.

Results

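The genes described here belong to the Wnt, Notch, bone morphogenetic protein (BMP) and transforming growth factor beta (TGF-beta), and Hedgehog signaling pathways in the hippocampus of male vervet monkeys. They were chosen by the opening letters of their symbols, for example WNT, FZD, DKK, NOTCH, HEY, BMP, SMAD, TGFB and GLI. This selected 56 of the 11512 probe sets of the table, or 0.486%, which carry 54 gene symbols. Wnt signaling had 26 probe sets, Notch 11, BMP and TGF-beta 15 and Hedgehog 4. Of these, 5 share only the letters with a pathway, namely both probe sets of BMP2K and those of JAGN1, PTCHD1 and TGFBI. Of 38 core pathway genes listed for comparison, 20 had a probe set under their own symbol, and 18, such as CTNNB1, NOTCH1, HES1, BMP4, SMAD4 and PTCH1, are not described here.

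Total RNA of the whole hippocampus was hybridized to rhesus macaque arrays with 1 array per animal, and a value is the log2 expression intensity of 1 probe set in 1 animal. The mothers of the animals with fetal alcohol spectrum disorder (FASD) drank ethanol by choice late in pregnancy, and those of the controls drank sucrose. At each of the ages of 5 months and 2 years, values were used for 6 controls and for 5 exposed offspring, all of them male. The labels name the species as Chlorocebus aethiops. The alcohol difference subtracts the controls from the animals with FASD and takes the mean of the result at the 2 ages. The age difference subtracts the younger animals from the older ones and takes the mean of the result in the 2 exposures. The interaction is the alcohol difference at 2 years less that at 5 months. Each was fitted with limma over all 11512 probe sets, with p values adjusted by the Benjamini-Hochberg method over all of them. Each difference is between animals on the same probe set.

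Wnt ligands bind Frizzled receptors and stabilise beta-catenin, which then acts with TCF and LEF factors in the nucleus, and secreted proteins of the Dickkopf and SFRP families hold the signal in check. Notch receptors are cleaved when a neighbouring cell presents a Delta or Jagged ligand, and the freed part switches on HES and HEY repressors. BMP and TGF-beta ligands act through receptor kinases and SMAD proteins, with SMAD6 and SMAD7 as inhibitors, while Hedgehog ligands act through Smoothened and the GLI factors. In the hippocampus these pathways are known for patterning the early cortex and for governing the neural stem cells of the dentate gyrus.

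The array of FASD animal 2 at 5 months stood apart from the rest. Over the 56 probe sets it lay a mean of 0.254 (log2) from its group mean, against 0.0995 to 0.196 for the other animals. Its mean log2 value over 7 measured genes of a list of 12 mural cell and fibroblast markers was 0.77 above the mean of all animals. FASD animal 6 at 2 years was close, at 0.69, and the rest lay from -0.33 upwards and below that. Over 4 of 9 oligodendrocyte markers FASD animal 2 at 5 months was 0.61 above, against -0.37 to 0.35 in the other animals. The title of an array without values also gives it the number 2 in that group, and the labels do not settle which animal each array came from. Where an alcohol or age difference given below for a single one of the 56 was over 0.05 in size and moved by over 1.5 times without FASD animal 2 at 5 months, the value without it is also given. Markers of hippocampal neurons were measured in every animal: NEUROD6 ranged from 9.07 to 10.45 and the dentate granule marker PROX1 from 7.14 to 8.82. In a whole tissue, fewer cells of a type and less RNA per cell cannot be told apart.

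**Figure D1:**
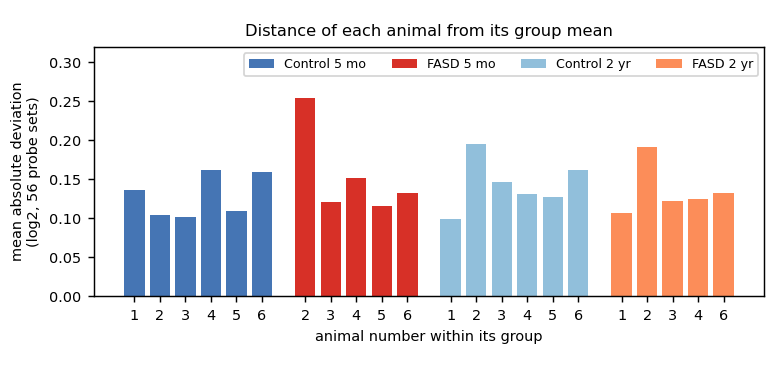
Mean absolute log2 distance of each animal from its group mean over the 56 probe sets, with 1 bar per animal and colours for the 4 groups. FASD animal 2 at 5 months had the largest distance, 0.254, and the others lay between 0.0995 and 0.196.

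No probe set of these pathways passed an adjusted p under 0.05 for alcohol, age or the interaction by limma. Among all probe sets 0.139% did so for age and 0.0% for alcohol and for the interaction. The lowest adjusted p was 0.178 for age (BMPER), 0.579 for alcohol and 1.0 for the interaction. At an unadjusted p under 0.05, 9 of the 56 differed with age, or 16.1%, against 9.57% of all probe sets. For alcohol 4 of 56 did so, or 7.14%, against 8.44%, and for the interaction 2 of 56, or 3.57%, against 3.0%. The shares for alcohol and the interaction were thus near the background, and that for age was above it. With a single probe set per symbol, 8 of 54 differed with age at that threshold, against 9.72% of all probe sets. Without FASD animal 2 at 5 months, 6 probe sets were at an unadjusted p under 0.05 for alcohol, 11 for age and 3 for the interaction, against 7.22%, 8.59% and 2.61% of all probe sets. For alcohol these were the same 4 with a BMP2K probe set and PTCHD1 added. For the interaction they were DKK1, a BMP2K probe set and PTCHD1. BMP2K and PTCHD1 share only letters with a pathway.

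The alcohol difference lay between -0.35 and 0.22 on the log2 scale and the age difference between -0.30 and 0.30. The 95% confidence interval stayed within 0.5 on either side of zero (a 1.41-fold change) for 54 of 56 probe sets for alcohol and for 53 of 56 for age. The median alcohol difference was 0.0014, against -0.0069 over all probe sets, and the median age difference was 0.014, against 0.0028. The residual SD between animals of a group had a median of 0.178 over the 56 probe sets, from 0.080 (GLI1) to 0.505 (TGFBI), against a median of 0.158 over all probe sets. In no stratum did the animals of the groups compared separate completely for any of the 56. Over all probe sets, 0.443% separated FASD from control animals at 5 months and 0.313% at 2 years, while 0.434% separated the ages in controls and 1.31% in animals with FASD.

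**Figure D2:**
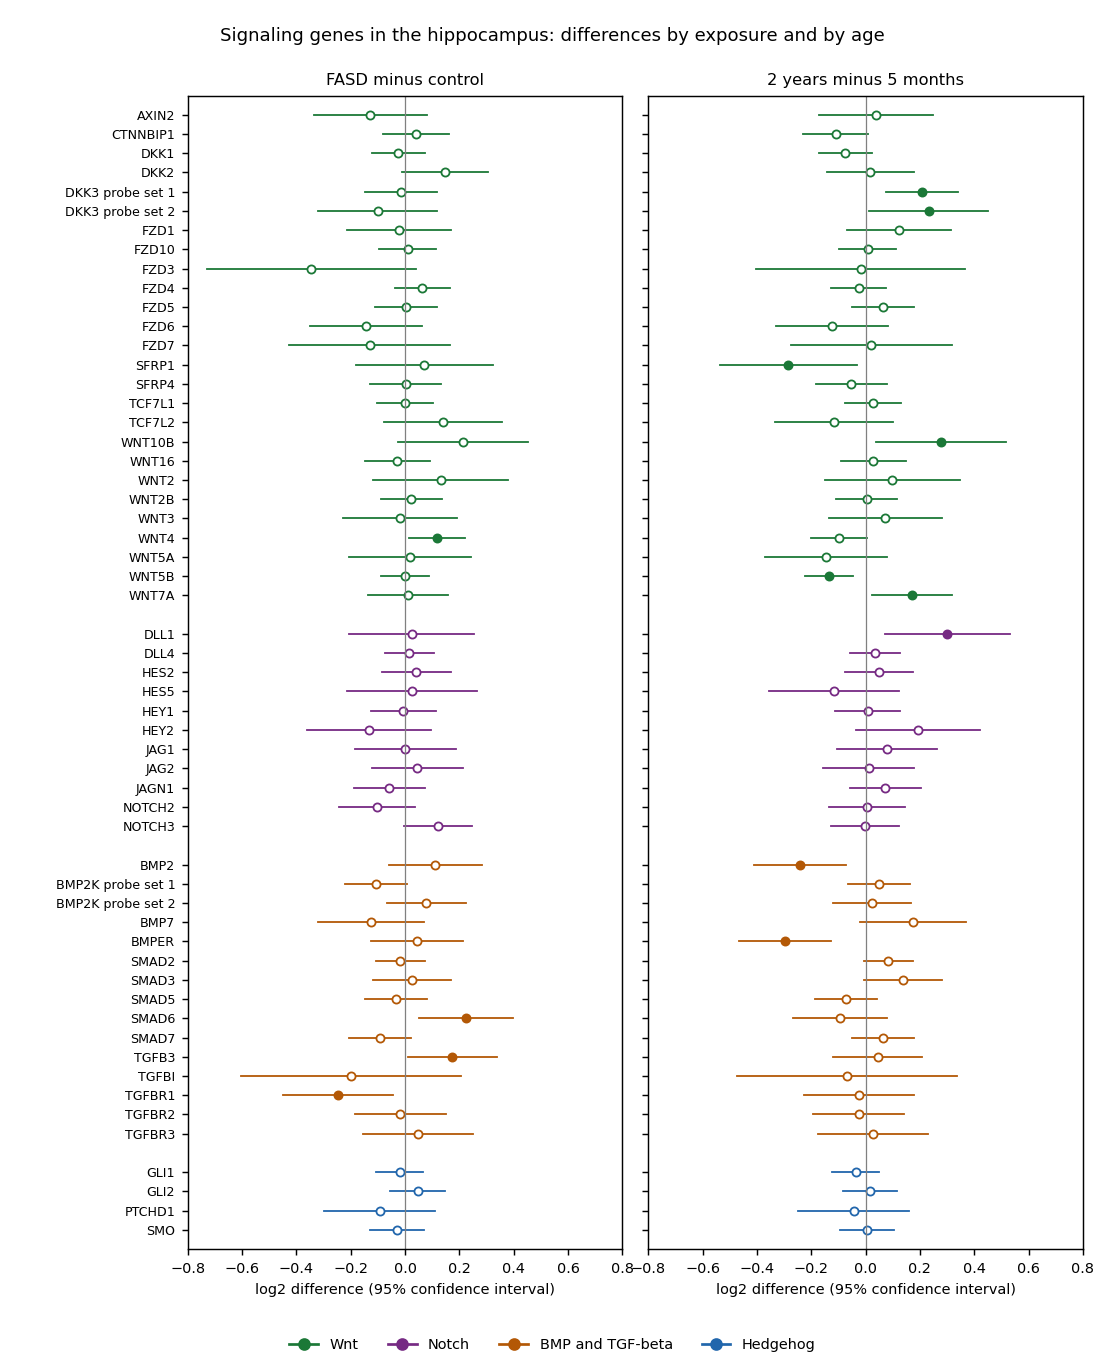
Log2 difference with its 95% confidence interval from limma for each of the 56 probe sets, coloured by pathway, for FASD minus control (left) and 2 years minus 5 months (right). Filled circles have an unadjusted p under 0.05, 4 for alcohol and 9 for age, and none of the 56 passed after adjustment over all probe sets.

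By pathway, the probe sets at an unadjusted p under 0.05 for age were 6 of 26 for Wnt, 1 of 11 for Notch, 2 of 15 for BMP and TGF-beta and 0 of 4 for Hedgehog. Of these 9, 5 were higher and 4 lower at 2 years, where 4.68% of all probe sets were higher and 4.89% lower at that threshold. For alcohol they were 1 of 26 for Wnt, 0 of 11 for Notch, 3 of 15 for BMP and TGF-beta and 0 of 4 for Hedgehog. With alcohol 3 were higher and 1 was lower in animals with FASD, against 2.43% and 6.01% of all probe sets.

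Of the Wnt ligands, 3 of 9 were at an unadjusted p under 0.05 for age, and they did not share a direction. WNT5B, a ligand known mainly for signaling that bypasses beta-catenin, was lower at 2 years. At 5 months the controls had log2 values of 6.31 at the lowest, 6.35 at the median and 6.47 at the highest, and the animals with FASD had 6.40, 6.49, 6.22, 6.32 and 6.31. At 2 years the controls had 6.09, 6.20 and 6.34, and the animals with FASD 6.30, 6.21, 6.16, 6.31 and 6.24. Of the 6 older controls, 5 lay below every younger control, and 3 of the 6 younger controls lay above every older one. In animals with FASD, 2 of 5 older animals lay below every younger one, and before rounding 4 of 5 younger ones lay above every older one. The age difference was -0.13 (SE 0.042, adjusted p = 0.251 by limma), and exact permutation of the animals within exposure gave an unadjusted two-sided p of 0.000971. Permutation p values here and below are unadjusted. They are given for members already selected by limma in the same values and are not independent support.

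WNT7A, a ligand known for its part in synapse formation and brain vessels, was higher at 2 years. Controls at 5 months ranged from 6.57 over a median of 6.71 to 6.94, and at 2 years from 6.38 over 6.86 to 7.0. Those exposed to alcohol had 6.65, 6.67, 6.70, 6.80 and 6.48 at 5 months and 7.02, 7.02, 7.09, 6.82 and 6.69 at 2 years. In animals with FASD, 4 of the 5 older animals lay above all 5 younger ones, whereas control animal 6 at 2 years, at 6.38, was below every younger control. With age the difference was 0.17 (SE 0.071, adjusted p = 0.427 by limma, exact permutation p = 0.0342). It was 0.07 in controls (SE 0.096) and 0.27 in animals with FASD (SE 0.105), and the interaction that tests this gap had an unadjusted p of 0.184. Leaving out FASD animal 3 at 2 years or FASD animal 6 at 5 months took the unadjusted p for age to 0.054 and 0.0559.

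WNT10B, a ligand of the beta-catenin branch, was also higher at 2 years. Controls ranged from 8.70 over 8.88 to 9.15 at 5 months and from 8.82 over 9.16 to 9.69 at 2 years. Exposed animals had 9.70, 9.16, 8.60, 9.06 and 9.17 at 5 months, where the highest value is that of animal 2, and 9.30, 9.74, 9.18, 9.22 and 9.46 at 2 years. The age difference was 0.28 (SE 0.116, adjusted p = 0.425 by limma, exact permutation p = 0.0357). It was 0.35 without FASD animal 2 at 5 months, with an unadjusted p of 0.00353, whereas without FASD animal 4 at 5 months the unadjusted p was 0.0639 and without FASD animal 2 at 2 years 0.0566.

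The other Wnt ligands did not pass this threshold for age. WNT5A, the close relative of WNT5B, had an age difference of -0.15 (95% confidence interval -0.37 to 0.08). FASD animal 2 at 5 months lay at 7.55, against 8.36 to 8.59 in the rest of its group, and without it the difference was -0.24 with an unadjusted p of 0.0105. WNT4 differed by -0.10 (unadjusted p = 0.0625), and WNT2, WNT2B, WNT3 and WNT16 by 0.0040 to 0.10.

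Among the secreted inhibitors, both probe sets annotated as DKK3 were higher at 2 years and SFRP1 was lower. DKK3 is a divergent Dickkopf protein, and unlike DKK1 it is not a plain blocker of the Wnt co-receptor. The probe sets with its symbol are numbered 1 and 2 in order of mean intensity. The paper reports keeping a single probe set per gene. The authors' annotation may therefore give 1 of the 2 to another gene. On probe set 1, controls ranged from 12.46 over 12.57 to 12.70 at 5 months and from 12.61 over 12.78 to 12.95 at 2 years. Animals with FASD had 12.22, 12.62, 12.61, 12.69 and 12.66 at 5 months and 12.90, 12.45, 12.82, 12.83 and 12.87 at 2 years. Of the older animals, 4 of 6 controls and 4 of 5 with FASD lay above all younger animals of their exposure, and animal 2 of each FASD group was the low one. With age the difference was 0.21 (SE 0.064, adjusted p = 0.245 by limma, exact permutation p = 0.00397), with 0.20 in controls and 0.21 in animals with FASD. Without FASD animal 2 at 5 months it was 0.16, with an adjusted p of 0.354.

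DKK3 probe set 2 gave a difference of similar size with a larger error. Its age difference was 0.23 (SE 0.105, adjusted p = 0.480 by limma, exact permutation p = 0.0555), at 0.10 in controls and 0.37 in animals with FASD. It kept an unadjusted p under 0.05 in 11 of the 22 fits that each left out 1 animal, and the highest was 0.0891, without FASD animal 2 at 2 years.

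SFRP1, which binds Wnt ligands outside the cell, had 7.77, 8.25 and 9.06 as the lowest, median and highest control values at 5 months, and 7.68, 8.06 and 8.21 at 2 years. The values in animals with FASD were 8.51, 8.64, 8.32, 8.27 and 8.11 at 5 months and 8.18, 8.35, 7.56, 8.19 and 8.05 at 2 years. The groups overlapped widely. The age difference was -0.28 (SE 0.122, adjusted p = 0.443 by limma, exact permutation p = 0.031). The highest value, 9.06, was that of control animal 6 at 5 months, whose mean over 3 measured of 8 choroid plexus markers was 1.25 above the mean of all animals, against -0.40 to 0.66 in the others. The part of these cells in the SFRP1 value was not tested, and without this animal the age difference was -0.21. Leaving out control animal 5 at 2 years, FASD animal 3 at 2 years or FASD animal 3 at 5 months took the unadjusted p to 0.0533, 0.0725 and 0.0588.

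Of the 7 Frizzled probe sets, none was at an unadjusted p under 0.05 for alcohol or age. FZD3, a receptor known for guiding axons, had the largest alcohol difference of all 56 by size, at -0.35, with a 95% confidence interval from -0.73 to 0.04. Its controls at 5 months ranged from 6.28 to 7.74 and its animals with FASD at 2 years from 6.17 to 7.04. Nor did the targets and nuclear factors pass that threshold. AXIN2, a negative regulator that is itself a Wnt target, differed by -0.13 with alcohol (unadjusted p = 0.214) and by 0.04 with age (unadjusted p = 0.707). FASD animal 2 at 5 months had 6.71 for AXIN2, against 7.48 to 7.78 in the rest of its group, and without it AXIN2 differed by -0.03 with alcohol (unadjusted p = 0.622) and by -0.06 with age. TCF7L2, a nuclear partner of beta-catenin, differed by 0.14 with alcohol (unadjusted p = 0.195) and by -0.12 with age (unadjusted p = 0.276).

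In the Notch pathway, the ligand DLL1 was higher at 2 years and the other members did not pass an unadjusted p under 0.05. Controls ranged from 7.35 over 7.51 to 7.71 at 5 months and from 7.44 over 7.75 to 8.15 at 2 years. Those exposed to alcohol had 6.68, 7.51, 7.80, 7.79 and 7.71 at 5 months and 8.08, 7.61, 7.75, 7.90 and 7.96 at 2 years. The single value of 6.68 belongs to animal 2, far below all other animals. With age the difference was 0.30 (SE 0.111, adjusted p = 0.356 by limma, exact permutation p = 0.00902). Without that animal it was 0.20, at an unadjusted p of 0.0187 by limma (adjusted p = 0.439).

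Neither the Notch receptors nor their targets passed that threshold for alcohol or age. NOTCH2 was at -0.10 for alcohol (95% confidence interval -0.24 to 0.04) and 0.0058 for age, and the vascular receptor NOTCH3 at 0.12 for alcohol (unadjusted p = 0.0584). The repressor HEY1 had group means of 9.07 in controls and 9.06 in animals with FASD at 5 months, and 9.08 and 9.07 at 2 years. Its interval was -0.13 to 0.11 for alcohol and -0.11 to 0.13 for age. HEY2 differed by 0.19 with age (unadjusted p = 0.0965) and HES5, a target active in neural stem cells, by -0.12 (unadjusted p = 0.327). Without FASD animal 2 at 5 months, HES5 differed with age by -0.04 (unadjusted p = 0.704). The ligand JAG1 differed by 0.0010 with alcohol (95% confidence interval -0.18 to 0.19) and by 0.08 with age, or 0.03 without that animal.

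Of the BMP and TGF-beta genes, BMPER and BMP2 were lower at 2 years. BMPER is a secreted protein that binds BMPs and tunes their activity. Its values lay in the low part of the table, which runs from 2.82 to 14.2. Controls ranged from 4.35 over 4.64 to 4.91 at 5 months and from 4.08 over 4.30 to 4.55 at 2 years. Animals with FASD had 5.05, 4.90, 4.42, 4.46 and 4.54 at 5 months and 4.38, 4.31, 4.26, 4.46 and 4.47 at 2 years. Both exposures showed it: 4 of 6 older controls lay below all younger controls, and 3 of 5 older animals with FASD below all younger ones. The age difference was -0.30 in all animals, in controls and in animals with FASD (SE 0.082, 0.110 and 0.121). Over all animals the adjusted p was 0.178 by limma, and exact permutation gave an unadjusted two-sided p of 0.00153. The interaction for BMPER had a 95% confidence interval from -0.34 to 0.34.

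BMP2, a ligand of the pathway, ranged in controls from 6.57 over 6.72 to 6.85 at 5 months and from 6.19 over 6.45 to 7.0 at 2 years. In animals with FASD they were 7.16, 6.66, 6.87, 6.68 and 6.84 at 5 months and 6.49, 6.45, 6.52, 6.68 and 6.82 at 2 years. Of the older controls, 4 of 6 lay below all younger ones, but control animal 2 at 2 years, at 7.0, lay above them all. With age the difference was -0.24 (SE 0.082, adjusted p = 0.290 by limma, exact permutation p = 0.00879).

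Markers of immature neurons and progenitors also moved with age. The mean over 5 measured of 9 such markers (DCX, MKI67, SOX11, SOX4 and STMN2), relative to the mean of all animals, lay between 0.04 and 0.26 in controls and between 0.16 and 0.27 in animals with FASD at 5 months. At 2 years it lay between -0.40 and -0.13 in controls and between -0.37 and 0.36 in animals with FASD. The part of these cells in the age differences above was not tested. Marker lists of the other cell types overlapped between the ages in both exposures.

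**Figure D3:**
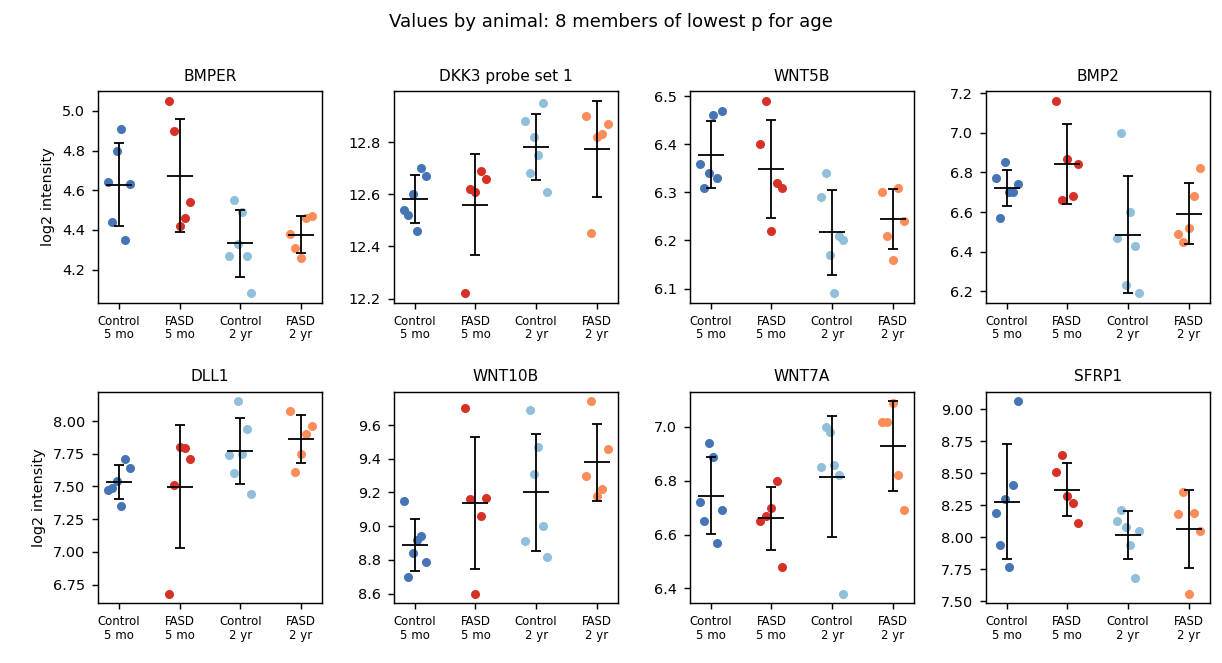
Log2 intensity in each of the 22 animals for the 8 probe sets of lowest p for age, with 1 point per animal and group means with their SD in black. BMPER, WNT5B, BMP2 and SFRP1 were lower and DKK3, DLL1, WNT10B and WNT7A higher at 2 years on average, with overlap between the ages in every panel.

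For alcohol, 3 of the 4 probe sets at an unadjusted p under 0.05 belong to the BMP and TGF-beta pathway, and all 4 had an adjusted p of 0.579 or 0.585 by limma. SMAD6, the inhibitory SMAD that mainly restrains BMP signals, was higher in animals with FASD. At 5 months the controls ranged from 6.34 over 6.66 to 6.82 and the animals with FASD had 6.88, 6.76, 6.45, 6.85 and 6.84. At 2 years the controls ranged from 6.21 over 6.38 to 6.83 and the animals with FASD had 6.81, 6.51, 6.61, 6.77 and 7.05. At 2 years 4 of 6 controls lay below all animals with FASD, and at 5 months 3 of 5 animals with FASD lay above all controls. The alcohol difference was 0.22 (SE 0.084, a 1.17-fold change, adjusted p = 0.579, exact permutation within age p = 0.0208), at 0.14 (SE 0.118) at 5 months and 0.31 (SE 0.118) at 2 years. SMAD7, the other inhibitory SMAD, differed by -0.09 (95% confidence interval -0.21 to 0.02), and by -0.06 without FASD animal 2 at 5 months.

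TGFBR1, the type I receptor kinase for TGF-beta, was lower in animals with FASD. At 5 months the controls ranged from 7.72 over 7.96 to 8.55 and the animals with FASD had 7.65, 7.96, 8.03, 7.83 and 7.87. At 2 years the controls ranged from 7.69 over 8.12 to 8.36 and the animals with FASD had 7.75, 7.35, 7.92, 7.83 and 7.97. At 2 years 4 of 6 controls lay above all animals with FASD, and at 5 months the groups overlapped except for 2 high controls and 1 low animal with FASD. The alcohol difference was -0.25 (SE 0.098, adjusted p = 0.579, exact permutation p = 0.0267). The other receptors TGFBR2 and TGFBR3 differed by -0.02 and 0.05.

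TGFB3, a TGF-beta ligand, had a median of 7.18 in controls at 5 months (from 6.99 to 7.54) and of 7.16 at 2 years (from 7.02 to 7.36). The values in animals with FASD were 7.16, 7.27, 7.43, 7.53 and 7.15 at 5 months and 7.25, 7.32, 7.55, 7.80 and 7.25 at 2 years. The alcohol difference was 0.17 (SE 0.079, adjusted p = 0.585, exact permutation p = 0.047). It missed an unadjusted p under 0.05 in 10 of the 22 fits that each left out 1 animal, with the highest value, 0.0966, without FASD animal 4 at 2 years.

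The only Wnt probe set at this threshold for alcohol was WNT4, a ligand known from gonad and kidney formation, which was slightly higher in animals with FASD. At 5 months the controls ranged from 5.56 over 5.62 to 5.76 and the animals with FASD had 5.64, 5.74, 5.90, 5.80 and 5.74. At 2 years the controls ranged from 5.33 over 5.57 to 5.66 and the animals with FASD had 5.78, 5.47, 5.60, 5.79 and 5.62. At 5 months 5 of 6 controls lay below all animals with FASD. The alcohol difference was 0.12 (SE 0.050, adjusted p = 0.579, exact permutation p = 0.0159). It missed an unadjusted p under 0.05 without control animal 4 at 2 years (0.0513), FASD animal 1 at 2 years (0.0566), FASD animal 4 at 2 years (0.058) or FASD animal 4 at 5 months (0.0582).

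The signal-carrying SMADs did not pass for either comparison. SMAD3 differed by 0.02 with alcohol (95% confidence interval -0.12 to 0.17) and by 0.14 with age (unadjusted p = 0.0576), and SMAD2 by -0.02 and 0.08. In the 5-month animals, markers of oligodendrocyte precursors moved with exposure. The mean over 5 measured of 7 of them lay between -0.14 and 0.08 in controls and between 0.15 and 0.33 in animals with FASD at that age, and between -0.57 and 0.11 and between -0.31 and 0.39 at 2 years. The mean over 4 of 9 oligodendrocyte markers at 5 months lay between -0.27 and 0.08 in controls and between 0.05 and 0.61 in animals with FASD. At 2 years, the mean over 3 measured of 8 endothelial markers lay between -0.35 and 0.15 in controls and between 0.07 and 0.28 in animals with FASD. The part of these cells in the alcohol differences was not tested. These lists were taken from a longer set. In the lists of other cell types, such as pyramidal neurons, astrocytes and microglia, exposed and control animals overlapped at both ages.

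**Figure D4:**
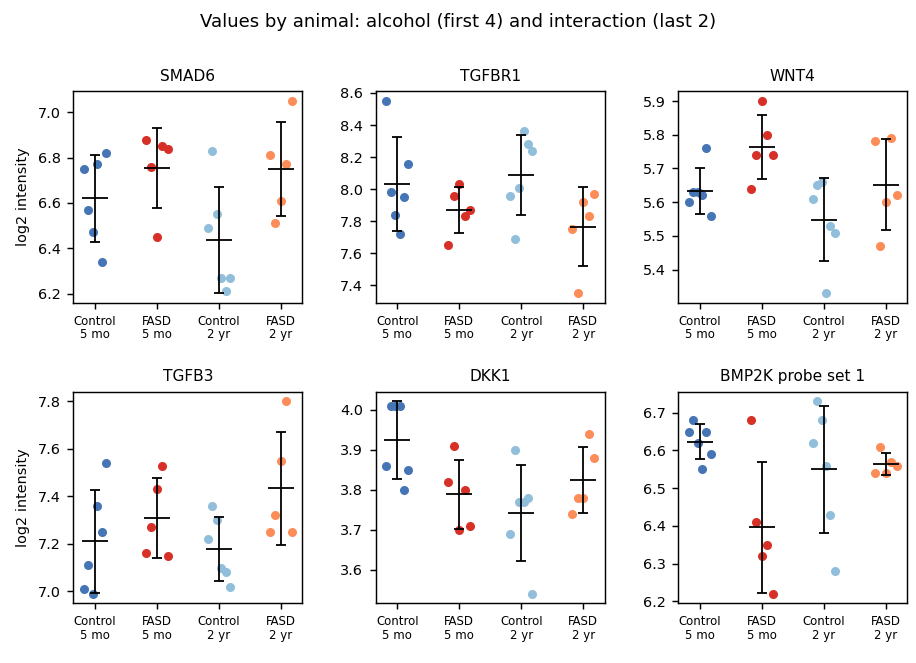
Log2 intensity in each animal for the 4 probe sets at an unadjusted p under 0.05 for alcohol (SMAD6, TGFBR1, WNT4 and TGFB3) and the 2 for the interaction (DKK1 and BMP2K), with 1 point per animal and group means with their SD in black. Exposed and control animals overlap at both ages in every panel.

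Within a single age, 1 of 56 probe sets differed between exposures at an unadjusted p under 0.05 at 5 months, against 4.83% of all probe sets, and 3 of 56 at 2 years, against 6.05%. The one at 5 months was a BMP2K probe set and those at 2 years were SMAD6, TGFBR1 and TGFB3. Within a single exposure, 5 of 56 differed with age in controls, against 5.55% of all probe sets, and 7 of 56 in animals with FASD, against 6.99%. In controls they were DKK1, WNT5B, BMP2, BMPER and DKK3 probe set 1. In animals with FASD they were BMPER, both DKK3 probe sets, WNT7A, DLL1, a BMP2K probe set and SMAD5, a signal carrier of the BMP branch, at -0.18 (SE 0.081, adjusted p = 0.699 by limma).

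For the interaction, DKK1 and a BMP2K probe set were at an unadjusted p under 0.05. DKK1 blocks the Wnt co-receptors, and its values lay between 3.54 and 4.01, near the low end of the table at 2.82. Controls ranged from 3.80 over 3.94 to 4.01 at 5 months and from 3.54 over 3.77 to 3.90 at 2 years. Animals with FASD had 3.82, 3.91, 3.70, 3.80 and 3.71 at 5 months and 3.74, 3.78, 3.78, 3.94 and 3.88 at 2 years. Exposed animals were thus lower on average at 5 months, by -0.13 (SE 0.067), and higher at 2 years, by 0.08 (SE 0.067). The interaction was 0.22 (SE 0.095, unadjusted p = 0.0311, adjusted p = 1.0 by limma), and it missed an unadjusted p under 0.05 in 8 of the 22 fits that each left out 1 animal.

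BMP2K is a kinase named for its induction by BMP2. On the probe set concerned, controls ranged from 6.55 over 6.63 to 6.68 at 5 months and from 6.28 over 6.59 to 6.73 at 2 years. Exposed animals had 6.68, 6.41, 6.32, 6.35 and 6.22 at 5 months and 6.54, 6.61, 6.54, 6.57 and 6.56 at 2 years. At 5 months 4 of 5 animals with FASD lay below all controls, and animal 2 was the exception. The interaction was 0.24 (SE 0.111, unadjusted p = 0.0379, adjusted p = 1.0 by limma) and 0.31 without animal 2 (unadjusted p = 0.00422, adjusted p = 0.999). It missed an unadjusted p under 0.05 in 10 of the 22 fits that each left out 1 animal. The other BMP2K probe set differed by 0.08 with alcohol, or by 0.01 without animal 2, with an interaction p of 0.242 unadjusted.

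None of the 4 Hedgehog probe sets was at an unadjusted p under 0.05 for alcohol, age or the interaction. The transducer SMO had group means of 6.69 in controls and 6.63 in animals with FASD at 5 months, and 6.67 in both at 2 years. The transcription factor GLI1, itself a target of the pathway, differed by -0.02 with alcohol (95% confidence interval -0.11 to 0.07) and by -0.04 with age. GLI2, the main activator, differed by 0.05 and 0.02. PTCHD1, which has a Patched domain but is not the Hedgehog receptor, differed by -0.09 with alcohol, and by -0.17 without FASD animal 2 at 5 months (unadjusted p = 0.0363).

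Further genes of the same pathways, taken from lists of receptors, regulators and targets that the symbol rule does not catch, gave no adjusted p under 0.05 either. Among the Wnt partners, 28 of 55 listed genes had a probe set. At an unadjusted p under 0.05, 3 of 29 probe sets were lower with alcohol, and with age 3 were higher and 1 was lower. Over all probe sets the shares at that threshold were 2.43% higher and 6.01% lower for alcohol and 4.68% and 4.89% for age. For the interaction the share was 3.0%. The same shares apply to the other partner lists below. LGR5, an R-spondin receptor and stem cell marker, differed by 0.34 with age (SE 0.101, adjusted p = 0.228 by limma), and APC, which helps to degrade beta-catenin, by -0.28 (SE 0.087, adjusted p = 0.251). The mean log2 value of LGR5 was 4.76, in the low part of the table. Its interaction was -0.41 (SE 0.202, unadjusted p = 0.0559 by limma). WLS, which carries Wnt ligands to the cell surface, differed by -0.26 with alcohol (SE 0.096, adjusted p = 0.579), and the R-spondin receptor LGR4 by -0.23 (SE 0.077, adjusted p = 0.579).

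Of the Notch partners, 1 of 17 probe sets was at an unadjusted p under 0.05 for age and none for alcohol or the interaction. It was RBPJ, the DNA-binding partner of cleaved Notch, at -0.12 (SE 0.045, adjusted p = 0.361 by limma). Of the 24 probe sets of BMP and TGF-beta partners, 2 were higher and 1 was lower with alcohol, and 4 were lower with age. The interaction had 1, a ZFYVE9 probe set at 0.25 (SE 0.117, adjusted p = 1.0 by limma), named after its values were seen, while the other ZFYVE9 probe set was at 0.03. ID1 and ID3, direct targets of BMP signals, differed by 0.21 (SE 0.086, adjusted p = 0.579) and 0.19 (SE 0.080, adjusted p = 0.580) with alcohol. ID4, on the same list, went the other way, at -0.13 (SE 0.135, adjusted p = 0.788 by limma). The BMP co-receptor RGMB differed by -0.18 with alcohol (SE 0.068), and LTBP1, which anchors latent TGF-beta, by -0.22 with age (SE 0.075, adjusted p = 0.290). Of the 13 Hedgehog partners, HHIP, which binds and holds back Hedgehog ligands, was the only one at this threshold for alcohol, at 0.39 (SE 0.113, adjusted p = 0.579). KIF7, a kinesin that regulates GLI proteins in the cilium, was the only one for the interaction, at 0.42 (SE 0.189, adjusted p = 1.0).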

How the data were processed

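Hippocampal RNA of 22 animals was hybridized to the Affymetrix GeneChip array for the rhesus macaque genome. The deposited values are log2 intensities made by the authors with RMA (no version is given in the sources used here), and the table holds the 11512 annotated and detected probe sets that they kept. The paper describes these as unique genes, with the probe set of highest mean kept for each. The columns of 2 further arrays held no values. Control animal 6 at 5 months has a source name of 2 years, and was placed by its title, description and age. Genes were named from the platform annotation, which gives 1 symbol for 8730 probe sets, several for 88 and none for 2694. Probe sets that share a symbol in it, as for DKK3 and BMP2K, may be different genes in the authors' annotation.

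A mean per group was fitted to every probe set with limma 3.58.1 in R 4.3.3, with empirical Bayes moderation and Benjamini-Hochberg adjustment. The steps were tested on simulated data. Single probe sets were also tested by exact permutation of animals within age or exposure, two-sided, without adjustment over probe sets. For age, permutation also put WNT4 (p = 0.0448) and SMAD2 (p = 0.0328) under 0.05, which limma did not. Marker means are of values centred on each gene's mean. The number of arrays limits the precision. The text names every member at an unadjusted p under 0.05 for alcohol, age or the interaction, with values by animal except for the ninth for age, the core genes, and up to 4 partners per list. The members and all lists were chosen with earlier results of these data known. Alternatives were array weights, centring of each array, quantile normalization, an intensity trend, analysis of variance and the 7675 probe sets of highest mean. Others were a single probe set per symbol, a block for the replicate number and leaving out each animal. Leaving out members that match by letters only was added after seeing the data. Plots used Python 3.11.15 and matplotlib 3.10.9.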

Additional observations from a re-analysis of the deposited data

Results flagged for a closer look

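Groups of animals were examined only for the 29 probe sets that were named for an unadjusted p under 0.05 or as core genes. In 11 of the 116 groups examined (9.48%), 1 animal lay far from the rest of its group by Dixon's test, which flags about 1 group in 20 by chance. In 5 of these groups it was FASD animal 2 at 5 months, the low value each time: AXIN2 at 6.71, DKK3 probe set 1 at 12.22, WNT5A at 7.55, DLL1 at 6.68 and SMAD7 at 6.47 (log2 intensity). The rest of its group lay at 7.48 to 7.78 for AXIN2, 12.61 to 12.69 for DKK3, 8.36 to 8.59 for WNT5A, 7.51 to 7.80 for DLL1 and 6.74 to 6.84 for SMAD7. Outside the 29, the same animal was highest of its group for some members, as for CTNNBIP1 at 8.89 against 8.52 to 8.54. For others it was lowest, as for FZD1 at 6.83 against 7.45 to 7.80.

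FASD animal 2 at 2 years was low for DKK3 probe set 1, at 12.45 against 12.82 to 12.90, and high for HES5, at 8.0 against 7.25 to 7.45. FASD animal 4 at 5 months was high for HEY2, at 6.66 against 6.34 to 6.41, and low for SMAD6, at 6.45 against 6.76 to 6.88. Control animal 5 at 5 months was high for WNT4, at 5.76 against 5.56 to 5.63. Control animal 6 at 2 years was low for WNT7A, at 6.38 against 6.82 to 7.0.

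The difference between exposed and control animals was not alike at both ages for DKK1, whose interaction was 0.22 on the log2 scale (unadjusted p = 0.0311 by limma), and for 1 BMP2K probe set, at 0.24 (unadjusted p = 0.0379). Both fail the adjustment over all probe sets, with an adjusted p of 1.0.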

How the results depend on the processing

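No member of these pathways passed an adjusted p under 0.05 for age in any of the 22 fits that each left out 1 animal. With array weights DKK3 probe set 1 did, at 0.21 (adjusted p = 0.04), which makes a count of 1. In that fit 0.617% of all probe sets passed for age, against 0.139% in the main fit. With array weights, which count deviating arrays less, the members at an unadjusted p under 0.05 were 8 for alcohol, 14 for age and 5 for the interaction, against 14.5%, 14.1% and 6.29% of all probe sets, and 9 for alcohol at 5 months, 5 at 2 years and 9 for age in controls. For counts within a single age or exposure, here and below, the share of all probe sets is given for the main fit only. Such counts are therefore not read as a result about the members. Over the 7675 probe sets of highest mean expression, which hold 25 of the 56, they were 2 for alcohol, 5 for age, 0 for the interaction and for alcohol at 5 months, 1 for age in controls and 4 for age in animals with FASD. The shares of all 7675 were 7.95% for alcohol, 9.98% for age and 2.7% for the interaction. The count for the interaction was 1 with centring, with quantile normalization and without the members that match by letters only. With centring DKK1 (unadjusted p = 0.0774) and BMP2K (0.0784) lost the threshold, and the 1 counted was SMAD5, at -0.26. With quantile normalization BMP2K lost it (0.0621). The count for alcohol at 5 months was 2 with centring, with an intensity trend and robust variances and with the replicate block, and 3 by analysis of variance. Leaving out 1 animal gave 2 to 9 for alcohol, 6 to 12 for age, 0 to 4 for the interaction, 1 to 5 for alcohol at 5 months, 1 to 6 at 2 years, 4 to 7 for age in controls and 3 to 8 in animals with FASD. The shares of all probe sets in these fits were 5.99% to 14.6% for alcohol, 7.93% to 12.4% for age and 2.2% to 6.56% for the interaction. The count for alcohol was 9 without control animal 2 at 2 years, where 14.6% of all probe sets were at that threshold. It was 2 without FASD animal 4 at 2 years, where 8.03% were. The cause of these shifts was not tested, apart from the fewer probe sets tested among the 7675.

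Over all settings, the members named for an unadjusted p under 0.05 kept direction and threshold in 386 comparisons and lost the threshold in 55, and none turned. These members were selected at that threshold in the main fit, and the other fits reuse the same animals. Keeping direction was thus largely fixed in advance and is not further support. Other core members gained it in some, as SMAD3 did for age with centring (0.14, unadjusted p = 0.0348) and with the replicate block (0.15, 0.048), and FZD3 for alcohol (-0.39, 0.0368) and WNT5A for age (-0.17, 0.0489) with array weights. SMAD6, TGFBR1, BMPER, DKK3 probe set 1, WNT5B, BMP2 and DLL1 kept it whichever animal was left out. Core members near zero turned sign. With array weights, DKK3 probe set 1 was at 0.0251 and HES5 at -0.0606 for alcohol, SMO at 0.0272 for alcohol and -0.0397 for age, FZD3 at 0.0478 and TGFBR1 at 0.0283 for age, and HEY1 at -0.0194 for age. With quantile normalization the DKK3 probe set was at 0.0042 and HEY1 at 0.0139 for alcohol, and HEY1 at -0.0010 for age. Centring put HEY1 at 0.0061 for alcohol. Leaving out 1 animal turned the sign within these ranges: for alcohol, DKK3 -0.0339 to 0.0253, WNT5A -0.0201 to 0.1096, WNT7A -0.0311 to 0.0420, DLL1 -0.0132 to 0.1267, HES5 -0.0510 to 0.0724, HEY1 -0.0401 to 0.0142, JAG1 -0.0505 to 0.0438 and SMAD3 -0.0165 to 0.0528. For age they were AXIN2 -0.0560 to 0.0862, FZD3 -0.0935 to 0.0525, HEY1 -0.0255 to 0.0283, NOTCH2 -0.0284 to 0.0357, TGFBR1 -0.0558 to 0.0275, GLI2 -0.0102 to 0.0404 and SMO -0.0211 to 0.0259.

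Nothing in the labels says that replicate numbers pair animals. The 30 pairs of same-numbered animals had a mean correlation of deviations of 0.0706, 13 of them over 0.1, and 4 of 22 arrays correlated best with their own number. The 151 pairs with different numbers had a mean of -0.0107. With the replicate block TGFB3 was at 0.17 for alcohol (unadjusted p = 0.0528), DKK3 probe set 1 at 0.0016 for alcohol and NOTCH2 at -0.0055 for age.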
